A study of Homo sapiens with 16 samples.

Results

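The 60 genes described here encode ribosome biogenesis factors, the proteins that make and process ribosomal RNA and assemble it into ribosomal subunits. They were taken by gene name and divided by role into 28 small subunit factors, 21 large subunit factors, 8 proteins of small nucleolar ribonucleoprotein particles (snoRNPs) and 3 general nucleolar proteins. All 60 were found among the 57820 genes of the table and all 60 were among the 18925 genes tested, which had an FPKM (a level corrected for gene length and sequencing depth) above 1 in at least 1 of the 16 libraries. The filter on low values did not choose among them, since the lowest FPKM of any of the 60 in any library was 9.72, of UTP20.

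The libraries were made from poly(A)-containing RNA of HEK-293 cells, a human embryonic kidney cell line, in the Flp-In T-REx form that takes up a single inducible transgene by recombination and was selected in hygromycin. One line carried F-Cherry-HCF-2 WT, HCF-2 (gene HCFC2) with N-terminal Flag and Cherry tags, and the other carried F-Cherry-HCF-2 Fn3nc*, the same fusion with substitutions in the Fn3n and Fn3c elements intended to break the Fn3nc module. Both lines received doxycycline at 1 µg/ml and RNA was taken 1, 2, 4 and 6 days later, which makes 8 groups of 2 libraries. The comparisons addressed how gene expression changed while HCF-2 WT was made, and whether the same happened with HCF-2 Fn3nc*. Every library came from induced cells with a transgene, since no uninduced cells and no cells with the tags alone were analysed here, and each line was 1 selected population, so that a difference between the lines cannot be told apart from a difference between those populations. Changes are therefore given from day 1 and, because the HCF-2 Fn3nc* day 1 libraries stood apart from the later ones, also from day 2. The methods describe the induction as done in duplicate, but neither they nor the labels say whether the 2 libraries of a group came from separate cultures, so that p-values measure only the spread between them, which may be technical. In bulk RNA, fewer cells that express a gene and less RNA per cell cannot be told apart.

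Ribosomes are assembled in the nucleolus around a long precursor RNA. Small subunit factors gather on its first part as the small subunit processome, which holds the precursor for cleavage, while large subunit factors fold and trim the remainder and load the 5S RNA. The snoRNP proteins form the core of the particles that methylate (box C/D) or pseudouridylate (box H/ACA) ribosomal RNA, and the general nucleolar proteins nucleophosmin (NPM1), nucleolin (NCL) and the helicase DDX21 are among the most abundant proteins of the nucleolus. Genes of this kind are commonly expressed at high levels in growing cells and include many known targets of the transcription factor MYC.

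The libraries held 20270033 to 31006448 counts, and the 2 deepest were the HCF-2 Fn3nc* day 1 libraries, so that depth and that group cannot be told apart. The 60 genes took 1.05% to 1.34% of the counts. Library 2 of the HCF-2 WT line on day 4 had counts in 36342 genes, against 26334 to 31607 in the others. HCFC2, which counts transcripts of the gene and of either transgene together, ran from 893 to 1479 CPM (a count scaled to the size of its library, by TMM). In the HCF-2 WT line it was 917 and 963 on day 1, 947 and 980 on day 2 and 1306 and 1362 on day 6. In the HCF-2 Fn3nc* line it was 893 and 909 on day 1, 1297 and 1348 on day 2 and 1384 to 1396 on day 6. From day 2 to day 6 HCFC2 therefore rose more in the HCF-2 WT line. Its part in the differences measured from day 2 was not tested. Of markers chosen for HEK-293 cells, NEFL was at an FPKM of 16.98 to 52.1, while PAX2 and LHX1 did not exceed 1.79 and NEFM did not exceed 0.56, and none of 10 markers of blood, endothelium, hepatocytes, squamous epithelium or fibroblasts exceeded 0.91.

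Compared per length, transcripts of general nucleolar and box C/D proteins held the top 4 mean levels. NPM1 had the highest mean FPKM over the 16 libraries, 2415, followed by NOP56 at 687, NCL at 563 and fibrillarin (FBL), the methyltransferase of the box C/D particle, at 492. Mean FPKM ran from 13.97 (RRP9) to 90.8 (WDR43) among the small subunit factors with a median of 34.3, from 20.02 (RRS1) to 155 (GNL3) among the large subunit factors with a median of 65.5, and from 18.5 (GAR1) to 687 among the snoRNP proteins with a median of 133. RRP12, a small subunit factor, ranged from an FPKM of 20.02 to 70.5 over the libraries, and UTP14A from 17.5 to 79.7, which are 3.52-fold and 4.56-fold ranges and the widest of the 60.

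**Figure D1:**
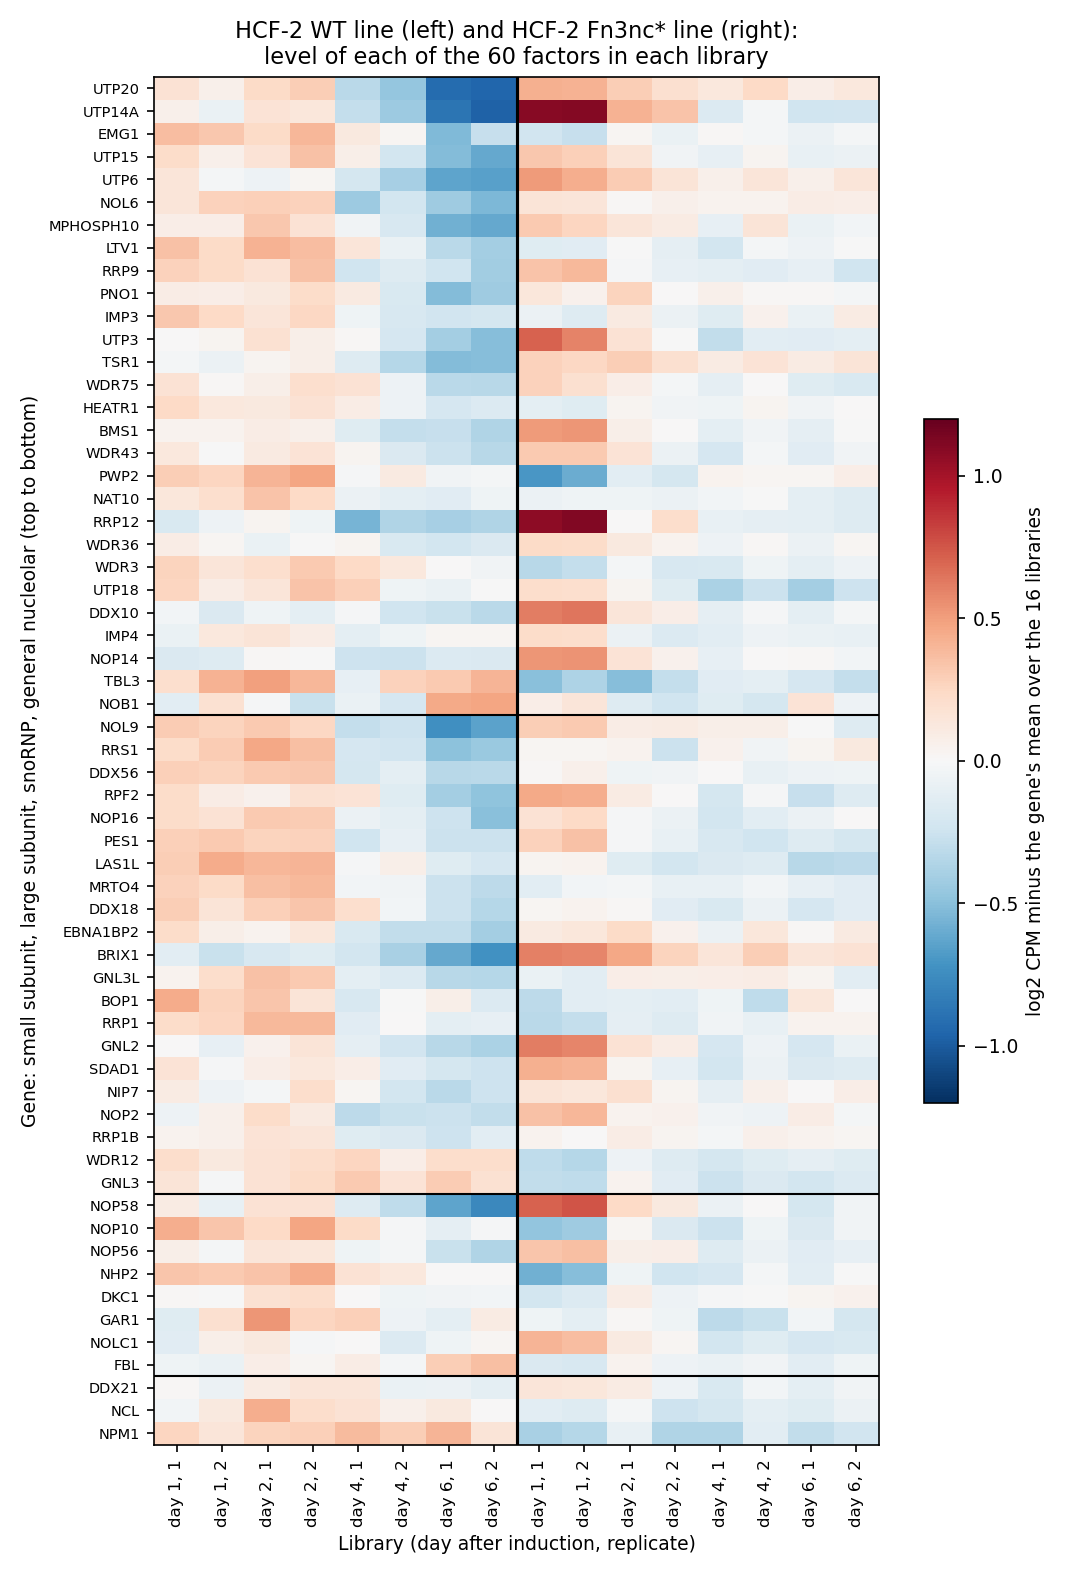
Level of each of the 60 genes (rows, by class and then by change in the HCF-2 WT line) in each of the 16 libraries (columns), as log2 CPM minus the mean of that gene over all libraries (colour). In the HCF-2 WT line most rows go from red on days 1 and 2 to blue on day 6, whereas in the HCF-2 Fn3nc* line the day 1 libraries are the ones that differ most from the rest, with UTP14A and RRP12 the darkest.

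In the HCF-2 WT line, transcripts of small and large subunit factors were lower on day 6 than on day 1, while the general nucleolar proteins were at similar levels. Of the 60 genes, 23 had fallen by day 6 and 0 had risen, at an adjusted p under 0.05 in the quasi-likelihood test of edgeR and a log2 fold change beyond 0.5. Over all genes tested, 8.04% were called lower and 13.2% higher in the same comparison. At an unadjusted p under 0.05, 46 of the 60 were lower and 2 higher, and DESeq2 called 22 lower and 0 higher. Shares of all genes at an unadjusted p or by DESeq2 are not given, here or below. The median log2 fold change of the 60 was -0.39 (54 of them negative), beside -0.01 over all genes tested, and in 48 of the 60 both day 6 libraries lay below both day 1 libraries, beside 34.9% of all genes tested. Without HCF-2 WT library 2 of day 1, 1 gene was called higher.

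None of the 60 genes was called lower before day 4. From day 1 to day 2, 0 of the 60 rose and 0 fell, beside 0.0264% and 0.275% of all genes, with 5 higher and 0 lower at an unadjusted p under 0.05 and 0 in either direction by DESeq2, and the median log2 fold change was 0.09. By day 4, 3 had fallen (NOL9, NOL6 and UTP20) beside 1.87% of all genes, and 0 had risen beside 5.13%, with 27 lower and 0 higher at an unadjusted p under 0.05, 3 lower and 0 higher by DESeq2, and a median of -0.19, and with upper quartile scaling 1 had fallen. The group means of 47 of the 60 genes were ordered day 2 above day 4 above day 6. This order was not counted over all genes. Measured from day 2 instead, 26 had fallen by day 6 beside 7.65% of all genes, and 1, NOB1, had risen beside 13.1%; NOB1 was not called without HCF-2 WT library 2 of day 2. These comparisons share the day 1 or the day 6 libraries with one another.

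**Figure D2:**
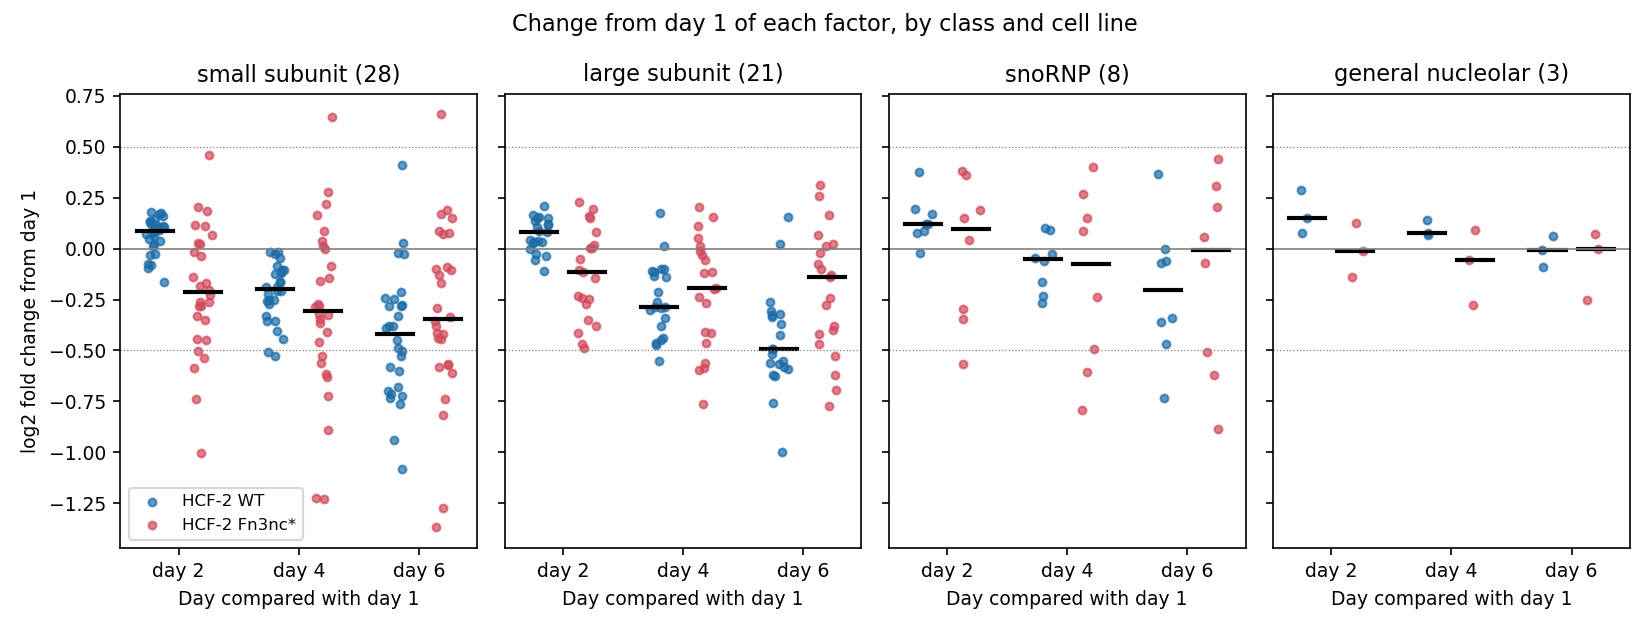
Change from day 1 (log2, y axis) of each gene (points) on days 2, 4 and 6 in the HCF-2 WT line (blue) and the HCF-2 Fn3nc* line (red), with 1 panel per class; black bars are medians and dotted lines mark 0.5 in either direction. In the HCF-2 WT line the medians of small and large subunit factors are 0.09 and 0.08 on day 2 and go down to -0.42 and -0.49 on day 6.

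The small subunit factors were the largest class. Of 28, 12 had fallen by day 6 in the HCF-2 WT line and 0 had risen, beside 8.04% and 13.2% of all genes tested. The median log2 fold change was -0.42, and the summed CPM of the class went from 3447 and 3313 on day 1 to 2595 in each day 6 library, 23.2% lower on average. UTP20, a large scaffold protein of the processome (chr12:101673883-101780396 of GRCh37, plus strand), fell the most of all 60. Its CPM was 195 and 180 on day 1, 202 and 211 on day 2, 138 and 125 on day 4 and 90.9 and 88.9 on day 6. Each later group lay below the one before from day 2 on, and the day 6 libraries were 2.11-fold lower than those of day 1 (log2 fold change -1.08, SE 0.09, adjusted p = 1.06e-05). UTP14A, whose yeast counterpart activates a helicase that frees the U3 RNA from the precursor (chrX:129040097-129063737), had a CPM of 85.6 and 77.8 on day 1, 91.8 and 90 on day 2, 67.1 and 60.4 on day 4 and 44.5 and 41.9 on day 6 (log2 fold change by day 6 -0.94, SE 0.09, adjusted p = 2.57e-05). Here too the day 4 and day 6 libraries lay below all libraries of days 1 and 2.

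EMG1, the methyltransferase that modifies a pseudouridine of the 18S RNA (chr12:7080076-7089098), had a CPM of 51.6 and 49.8 on day 1, 43.1 and 40.5 on day 4 and 27.6 and 32.96 on day 6 (log2 fold change -0.77, SE 0.11, adjusted p = 0.000248). EMG1 lies over LPCAT3 on the other strand for 55.5% of its exonic bases, and no source used here says whether the counting used strand, so that its reads and those of LPCAT3 cannot be told apart with certainty. UTP15, of the UTP-A complex that binds the precursor first, had a CPM of 80.95 and 72.1 on day 1 and 48.2 and 45.2 on day 6 (log2 fold change -0.73, SE 0.11, adjusted p = 0.000507), and LTV1, which acts on late pre-40S particles, had 99.4 and 91.7 on day 1 and 62.5 and 58.8 on day 6 (log2 fold change -0.68, SE 0.09, adjusted p = 0.000263). In each the day 1 and day 6 libraries were well apart. In an annotation released after the one used for the counts, LTV1 shares 27.6% of its exonic bases with a second gene on the same strand. The other small subunit factors that fell were UTP6 (-0.72), NOL6 (-0.71), MPHOSPH10 (-0.70), RRP9 (-0.60), PNO1 (-0.58), IMP3 (-0.53) and UTP3 (-0.50, log2 fold changes).

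The factors that fell came from several complexes of small subunit assembly. They included RRP9, the protein that marks the U3 particle, 2 of the 3 members of the MPP10 complex (MPHOSPH10 and IMP3, but not IMP4 at -0.03), and 2 of the 4 late pre-40S factors, LTV1 and PNO1. PNO1 is the partner of NOB1, the nuclease that makes the 3′ end of the 18S RNA, and NOB1 went the other way: its CPM was 36.2 and 44.9 on day 1, 39.2 and 32.9 on day 2 and 54.3 and 55.1 on day 6. Its log2 fold change was 0.41 (SE 0.12, adjusted p = 0.0159) from day 1, which did not pass, and 0.58 (SE 0.12, adjusted p = 0.00253) from day 2, which did. Of the UTP-A and UTP-B complexes only UTP15 and UTP6 passed, and the other 8 members had log2 fold changes from -0.45 to 0.03. UTP3 was at the threshold and was not called by DESeq2 (log2 fold change -0.50, adjusted p = 0.000669), with other scalings, or without any of HCF-2 WT libraries 2 of day 1, 1 of day 2, 2 of day 4 and 2 of day 6 (log2 fold changes -0.45 to -0.49).

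The promoters of the 60 genes were searched for short words known as binding motifs, over 250 bases before to 50 bases after the start in RefSeq (GRCh38.p14), on both strands, for the 51 of the 60 genes that the table holds. The E-box CACGTG, bound by MYC and MAX, was in 20 of 51 promoters (39.2%), beside 7.43% of 27305 promoters of all genes and 8.88% of 15842 of protein-coding genes. CCGGAAG, bound by ETS factors, was in 20 of 51 (39.2%), beside 10.7% and 14.2%. GCGCATG (part of the NRF1 site) was in 11.8% beside 4.67% of all, AAGATGG (YY1) in 13.7% beside 6.06%, and ACTACAA (a core of the ZNF143 motif) in 3.92% beside 2.95%. CACGTG reads the same on both strands, and CCGGAAG can share its last letters with the first of AAGATGG. Among the 18 genes with a promoter that fell in the HCF-2 WT line, 9 held CACGTG and 8 CCGGAAG, and among the other 33, 11 and 12 did. GCGCATG was in 0 of the 18 and 6 of the 33, AAGATGG in 2 and 5, and ACTACAA in 0 and 2. None of these splits was tested. A match is only a word in this window and says nothing about binding in these cells. The 120 bases before the start are shown for UTP20 and NOL9, the 2 genes that fell the most, for EMG1, LTV1 and UTP3, and for UTP18, which did not pass in the HCF-2 WT line. They run 5′ to 3′ on the strand of the gene, with CACGTG and CCGGAAG (or its complement CTTCCGG) in capitals. Every stretch shown holds at least 1 of these words, so they do not stand for the 51 promoters. UTP14A, which also fell, has its CACGTG 241 bases before the start, outside such a stretch, and is not shown. The positions, in GRCh38.p14, are chr12:101279985-101280104 (plus strand) for UTP20, chr17:51260426-51260545 (plus) for UTP18, chr12:6970793-6970912 (plus) for EMG1, chr6:143843218-143843337 (plus) for LTV1, chr4:70688412-70688531 (plus) for UTP3 and chr1:6554514-6554633 (minus) for NOL9.
UTP20: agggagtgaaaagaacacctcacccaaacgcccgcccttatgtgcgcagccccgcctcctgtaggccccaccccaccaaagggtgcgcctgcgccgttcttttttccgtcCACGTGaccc
UTP18: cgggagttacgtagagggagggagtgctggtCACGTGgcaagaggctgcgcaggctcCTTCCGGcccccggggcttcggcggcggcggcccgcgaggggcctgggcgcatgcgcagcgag
EMG1: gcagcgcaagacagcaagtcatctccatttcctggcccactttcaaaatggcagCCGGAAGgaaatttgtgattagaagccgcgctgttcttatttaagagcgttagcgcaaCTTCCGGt
LTV1: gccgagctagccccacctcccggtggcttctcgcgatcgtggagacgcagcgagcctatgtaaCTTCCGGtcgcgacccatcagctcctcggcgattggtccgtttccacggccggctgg
UTP3: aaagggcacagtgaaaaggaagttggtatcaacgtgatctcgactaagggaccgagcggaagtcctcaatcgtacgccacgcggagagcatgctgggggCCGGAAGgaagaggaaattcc
NOL9: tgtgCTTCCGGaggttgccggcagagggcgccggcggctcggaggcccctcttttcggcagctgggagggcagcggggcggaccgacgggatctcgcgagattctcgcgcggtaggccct
UTP20 and UTP18 each have an E-box before the start, which in UTP20 begins 10 bases upstream. EMG1 has 2 ETS words, and UTP18, LTV1, UTP3 and NOL9 have 1 each.

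Large subunit factors were lower on day 6 as well. Of 21, 10 had fallen by day 6 in the HCF-2 WT line and 0 had risen, beside 8.04% and 13.2% of all genes tested. The median log2 fold change was -0.49, and the summed CPM of the class was 3048 and 2948 on day 1 and 2320 and 2278 on day 6, 23.3% lower on average. NOL9, the kinase that phosphorylates RNA ends after the second internal spacer (ITS2) is cut (chr1:6581407-6614573, minus strand), had a CPM of 209 and 203 on day 1, 209 and 200 on day 2, 138 and 142 on day 4 and 101 and 108 on day 6 (log2 fold change by day 6 -0.998, SE 0.08, adjusted p = 8.92e-06). Its partner LAS1L, the nuclease that makes that cut, fell as well (log2 fold change -0.57). RRS1 and RPF2, the pair that loads the 5S particle, both fell: RRS1 (chr8:67341249-67342968) had a CPM of 36.4 and 38.6 on day 1 and 22.2 and 22.8 on day 6 (log2 fold change -0.76, SE 0.09, adjusted p = 9.04e-05). RPF2 (chr6:111303218-111349466) had 128 and 117 on day 1 and 82.7 and 78.4 on day 6 (log2 fold change -0.62, SE 0.11, adjusted p = 0.0012). No day 6 library reached a day 1 library in any of these 4 genes.

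DDX56, a nucleolar RNA helicase (chr7:44605403-44614650), had a CPM of 186 and 185 on day 1, 132 and 141 on day 4 and 122 and 123 on day 6 (log2 fold change -0.62, SE 0.08, adjusted p = 0.000123), and the second helicase of the class, DDX18, fell to a like extent (-0.55). NOP16 (-0.59), PES1 (-0.58), MRTO4 (-0.56) and EBNA1BP2 (-0.52) were the other large subunit factors that passed. PES1, BOP1 and WDR12 form the PeBoW complex, which is needed for maturation of the 28S RNA, and their values were unlike one another. BOP1 had a CPM of 99.5 and 88.4 on day 1 and 76.9 and 65.3 on day 6, with a log2 fold change of -0.42 (SE 0.11, adjusted p = 0.00961) that did not pass the fold threshold, and -0.55 (adjusted p = 0.0146) without HCF-2 WT library 1 of day 6. WDR12 was at 0.02. Of the 3 nucleolar GTPases, GNL2 had a CPM of 181 and 168 on day 1 and 142 and 138 on day 6 (-0.34), while GNL3L was at -0.49 and GNL3, nucleostemin, at 0.15, and none was called. RRP1, a processing factor of the large subunit, had a CPM of 134 and 138 on day 1 and 106 and 108 on day 6 (log2 fold change -0.37) and SDAD1 had 81.9 and 72.5 on day 1 and 63.4 and 61.5 on day 6 (-0.33), neither of which passed.

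Among the 8 snoRNP proteins 1, NOP58, had fallen by day 6, and 0 had risen, beside 8.04% and 13.2% of all genes tested. With 8 genes, a count of 1 cannot be set apart from the share of all genes. NOP58, a core protein of the box C/D particle (chr2:203130459-203168384), had a CPM of 222 and 194 on day 1, 233 in both libraries on day 2, 186 and 167 on day 4 and 133 and 121 on day 6 (log2 fold change -0.73, SE 0.10, adjusted p = 0.000191). The other core proteins of the same particle differed from it. NOP56 had a CPM of 567 and 529 on day 1 and 447 and 420 on day 6 (log2 fold change -0.36, SE 0.08, adjusted p = 0.00409), and FBL had 308 and 302 on day 1, 336 and 325 on day 2, 340 and 313 on day 4 and 390 and 409 on day 6 (log2 fold change 0.37, SE 0.08, adjusted p = 0.0043). Both day 6 libraries of FBL lay above all earlier libraries of the line, without passing the fold threshold.

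The box H/ACA proteins had log2 fold changes from -0.47 to -0.06 and none passed. DKC1, dyskerin, the pseudouridine synthase, had a CPM of 190 and 188 on day 1 and 182 and 183 on day 6 (-0.07). NHP2 had 163 and 161 on day 1 and 130 in both libraries on day 6 (-0.34), and NOP10 had 65.6 and 61.2 on day 1 and 45.1 and 48.1 on day 6 (-0.47, and -0.51 with an adjusted p of 0.0321 without HCF-2 WT library 2 of day 6). NOLC1, a chaperone of both kinds of particle, had 346 and 401 on day 1 and 369 and 388 on day 6 (-0.0038). NPM1 had a CPM of 2900 and 2667 on day 1 and 3208 and 2688 on day 6 (0.06), NCL had 926 and 1029 on day 1 and 1025 and 950 on day 6 (-0.01), and DDX21 was at -0.09, so that 0 of the 3 general nucleolar proteins passed and the libraries of the 2 days overlapped in each. The summed CPM of the 3 was 4776 and 4591 on day 1 and 5128 and 4502 on day 6.

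**Figure D3:**
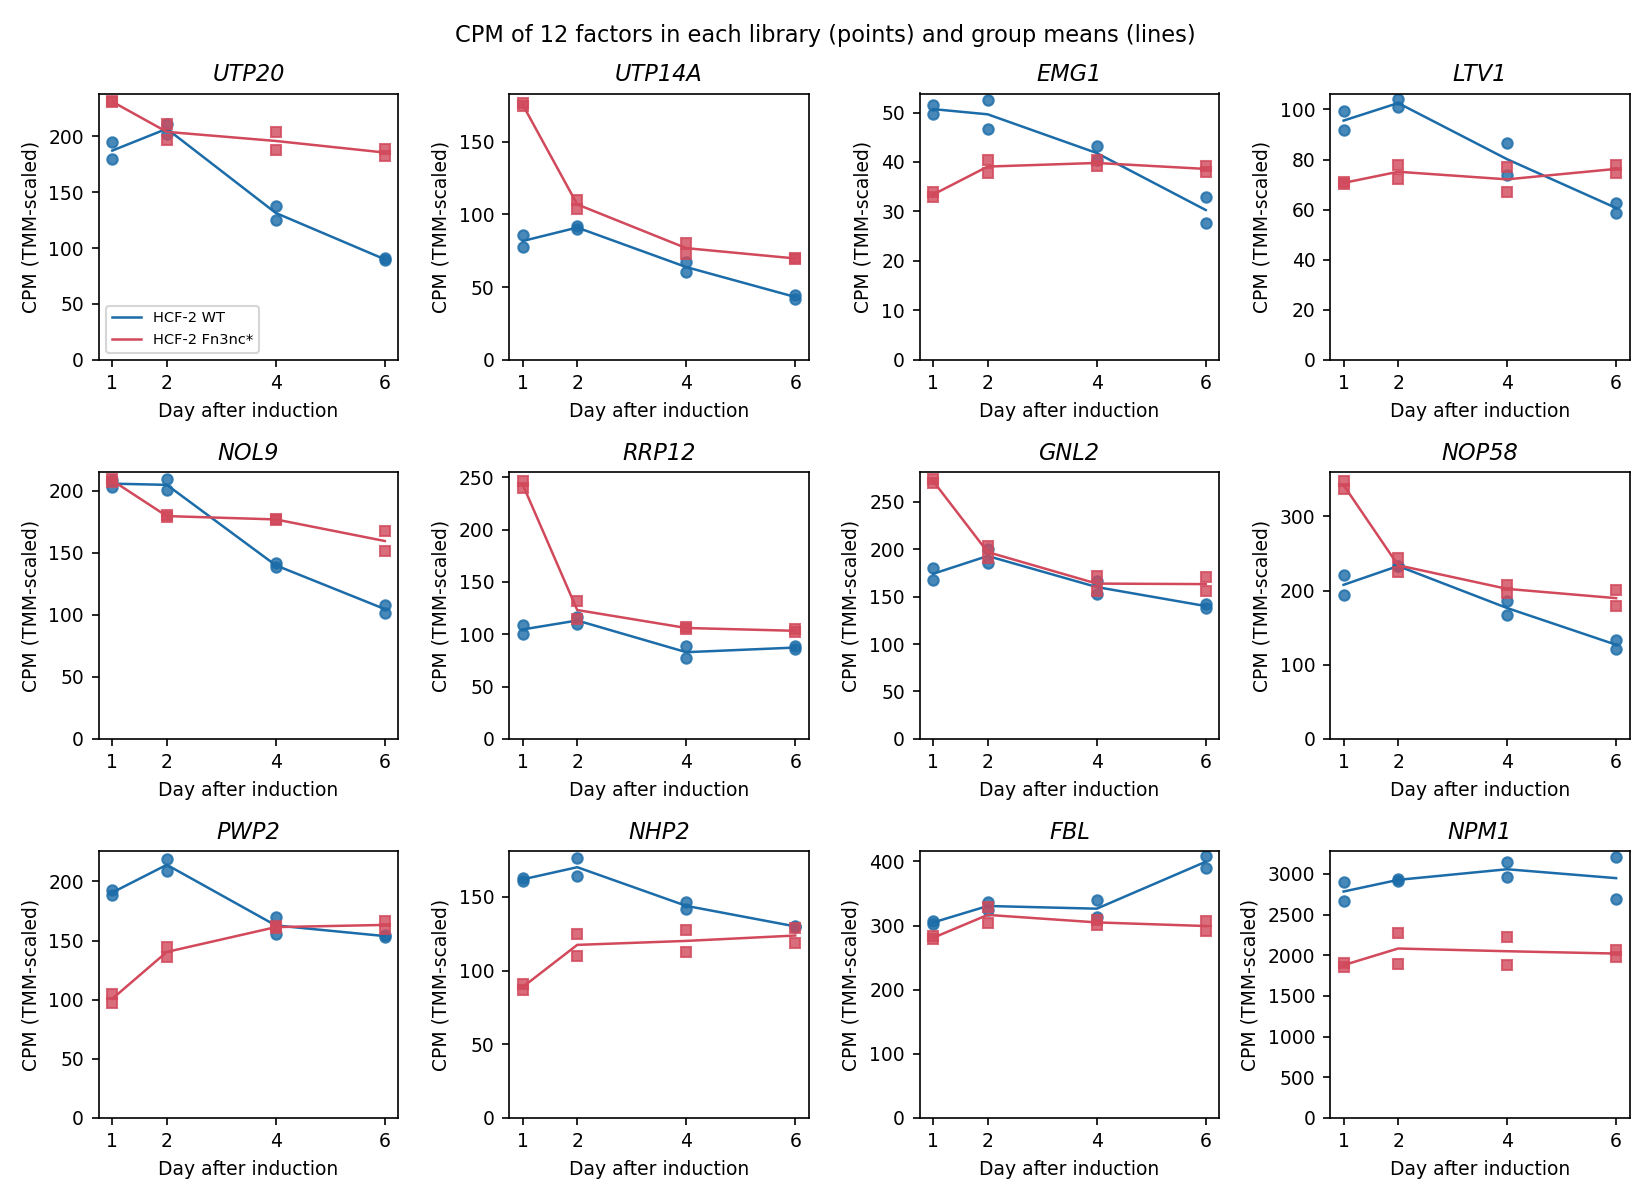
CPM (y axis, from 0) of 12 of the genes by day after induction (x axis) in the HCF-2 WT line (blue circles) and the HCF-2 Fn3nc* line (red squares); each point is a library and lines join group means. UTP20 and NOL9 go down further in the HCF-2 WT line than in the other, RRP12, GNL2 and NOP58 are highest in the HCF-2 Fn3nc* day 1 libraries, and PWP2 and NHP2 are lowest there.

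In the HCF-2 Fn3nc* line fewer genes were called from day 2 than from day 1, among the 60 and over all genes alike. Over all genes tested, 2920 were called lower by day 6 from day 1 and 420 from day 2. By day 6, 15 of the 60 genes had fallen from day 1 and 1, PWP2, had risen, beside 15.4% and 8.89% of all genes tested, with a median log2 fold change of -0.20. By class, 8 of 28 small subunit factors, 4 of 21 large subunit factors, 3 of 8 snoRNP proteins and 0 of 3 general nucleolar proteins had fallen. From day 1 to day 2, 6 had fallen beside 10.7% of all genes and 0 had risen beside 4.18%, with 11 higher and 30 lower at an unadjusted p under 0.05 and 5 lower and 0 higher by DESeq2. By day 4, 14 had fallen beside 15.4% and 1, PWP2, had risen beside 8.04%. The day 2 count rested on 1 library, since without HCF-2 Fn3nc* library 2 of day 2 only 2 genes were called lower and 1 higher, and without library 2 of day 1 there was 1 called higher. On day 4 and day 6 there were 2 called higher without library 1 of that day.

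When day 2 was the reference, 1 gene, UTP14A, had fallen by day 6 in the HCF-2 Fn3nc* line beside 2.22% of all genes, and 0 had risen beside 0.645%, with 18 lower and 3 higher at an unadjusted p under 0.05 and 1 lower and 0 higher by DESeq2. The 60 genes then had a median log2 fold change of -0.11. Other than UTP14A, none of the 15 genes called lower from day 1 was called from day 2. The day 1 libraries of this line had the highest mean of the 8 groups in 28 of the 60 genes and the lowest in 12. Neither number was obtained over all genes. The counts called lower by day 6 from day 1 and day 2 were 23 and 26 in the HCF-2 WT line.

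RRP12, a protein needed for export of small subunits (chr10:99116115-99185833, minus strand), was called from day 1 but not from day 2. Its CPM in the HCF-2 Fn3nc* line was 240 and 246 on day 1, 114 and 132 on day 2, 107 and 105 on day 4 and 105 and 102 on day 6, against 100 and 109 on day 1 and 85.9 and 88.5 on day 6 in the HCF-2 WT line. Its log2 fold change by day 6 was -1.27 (SE 0.07, adjusted p = 8.42e-07) from day 1 and -0.27 (SE 0.07, adjusted p = 0.0596) from day 2, the second of which did not pass. UTP14A, called from both days, had a CPM of 174 and 176 on day 1, 110 and 104 on day 2, 72.99 and 80.5 on day 4 and 69.4 and 69.96 on day 6. Each group mean lay below the one before (log2 fold change by day 6 -1.37, SE 0.06, adjusted p = 2.11e-07 from day 1 and -0.63, SE 0.06, adjusted p = 0.000495 from day 2). UTP3, a processome protein (chr4:71554249-71556268), had a CPM of 60.7 and 56.2 on day 1, 41.99 and 37.02 on day 2 and 33.8 and 34.2 on day 6 (log2 fold change from day 1 -0.82, SE 0.08, adjusted p = 2.73e-05). From day 2 it was -0.23 and did not pass.

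Large subunit factors and snoRNP proteins were also among the genes called from day 1. GNL2 (chr1:38032417-38061538) had a CPM of 274 and 270 on day 1, 203 and 191 on day 2 and 156 and 170 on day 6 (log2 fold change from day 1 -0.77, SE 0.07, adjusted p = 1.33e-05, from day 2 -0.29). RPF2 had 150 and 148 on day 1 and 90.3 and 98.1 on day 6 (log2 fold change -0.70, SE 0.07, adjusted p = 4.08e-05), and SDAD1, whose yeast counterpart is needed for export of large subunits, had 98.6 and 97.3 on day 1 and 64.9 and 65.7 on day 6 (-0.62, SE 0.07, adjusted p = 4.53e-05). NOP58 had 336 and 348 on day 1, 244 and 224 on day 2 and 179 and 201 on day 6 (log2 fold change -0.89, SE 0.07, adjusted p = 6.72e-06). All 4 were lower on day 6 than on day 1 in both libraries, and from day 2 none passed both thresholds. NOLC1 had 505 and 495 on day 1 and 331 and 336 on day 6 (log2 fold change -0.62, SE 0.06, adjusted p = 2.13e-05), and NOP56 had 678 and 693 on day 1 and 489 and 502 on day 6 (-0.51, SE 0.06, adjusted p = 7.39e-05). NOP56 sat at the threshold, with log2 fold changes of -0.46 to -0.49 and no call by DESeq2, with other scalings, or without any of HCF-2 Fn3nc* libraries 2 of day 1, 2 of day 2, 1 and 2 of day 4, and 1 of day 6. The other genes that fell from day 1 were DDX10 (-0.74), BMS1 (-0.61, with 20 pseudogenes in the table whose counts equal 24.3% of those of the gene), NOP14 (-0.58), UTP18 (-0.57), RRP9 (-0.57) and PES1 (-0.53).

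Some members started low in the HCF-2 Fn3nc* line. PWP2, of the UTP-B complex (chr21:45527254-45551063), had a CPM of 97.05 and 104 on day 1, 145 and 136 on day 2, 162 and 160 on day 4 and 160 and 167 on day 6. It was the member that rose (log2 fold change 0.66, SE 0.06, adjusted p = 1.78e-05 from day 1, 0.20 from day 2). In an annotation released after the one used for the counts, PWP2 shares 46.6% of its exonic bases with a duplicate record on the same strand. NHP2 had 87.05 and 90.7 on day 1, 125 and 110 on day 2 and 118 and 129 on day 6, with a log2 fold change of 0.44 (SE 0.08, adjusted p = 0.00137) that did not pass, and 0.53 (adjusted p = 0.00326) without HCF-2 Fn3nc* library 1 of day 6. NHP2 lies over RMND5B on the other strand for 28.0% of its exonic bases. NOP10, its partner in the box H/ACA particle, had 34.98 and 36.1 on day 1 and 42.97 and 47.2 on day 6 (0.31, not called). Both day 6 libraries lay above both day 1 libraries in all 3 genes.

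From day 1 to day 6, 6 genes were called lower in both lines, NOP58, PES1, RPF2, RRP9, UTP14A and UTP3, which were 26.1% of the 23 of the HCF-2 WT line and 40% of the 15 of the HCF-2 Fn3nc* line. Over all genes tested 319, or 1.69%, were called lower in both, which were 21% of the 1522 of the HCF-2 WT line and 10.9% of the 2920 of the other. From day 2 the shared gene was UTP14A, 3.85% of the 26 of the HCF-2 WT line and the 1 gene of the other, beside 0.143% of all genes. The 2 genes that fell the most in the HCF-2 WT line had smaller changes in the other: UTP20 had a CPM of 231 in both libraries on day 1 and 182 and 189 on day 6 (log2 fold change -0.35, SE 0.06, adjusted p = 0.00116), NOL9 had 207 and 209 on day 1 and 168 and 151 on day 6 (-0.42, SE 0.06, adjusted p = 0.000427), and neither passed the fold threshold. For UTP14A, NOP58 and RPF2 the values there were -1.37, -0.89 and -0.70 against -0.94, -0.73 and -0.62 in the HCF-2 WT line (log2 fold changes from day 1).

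**Figure D4:**
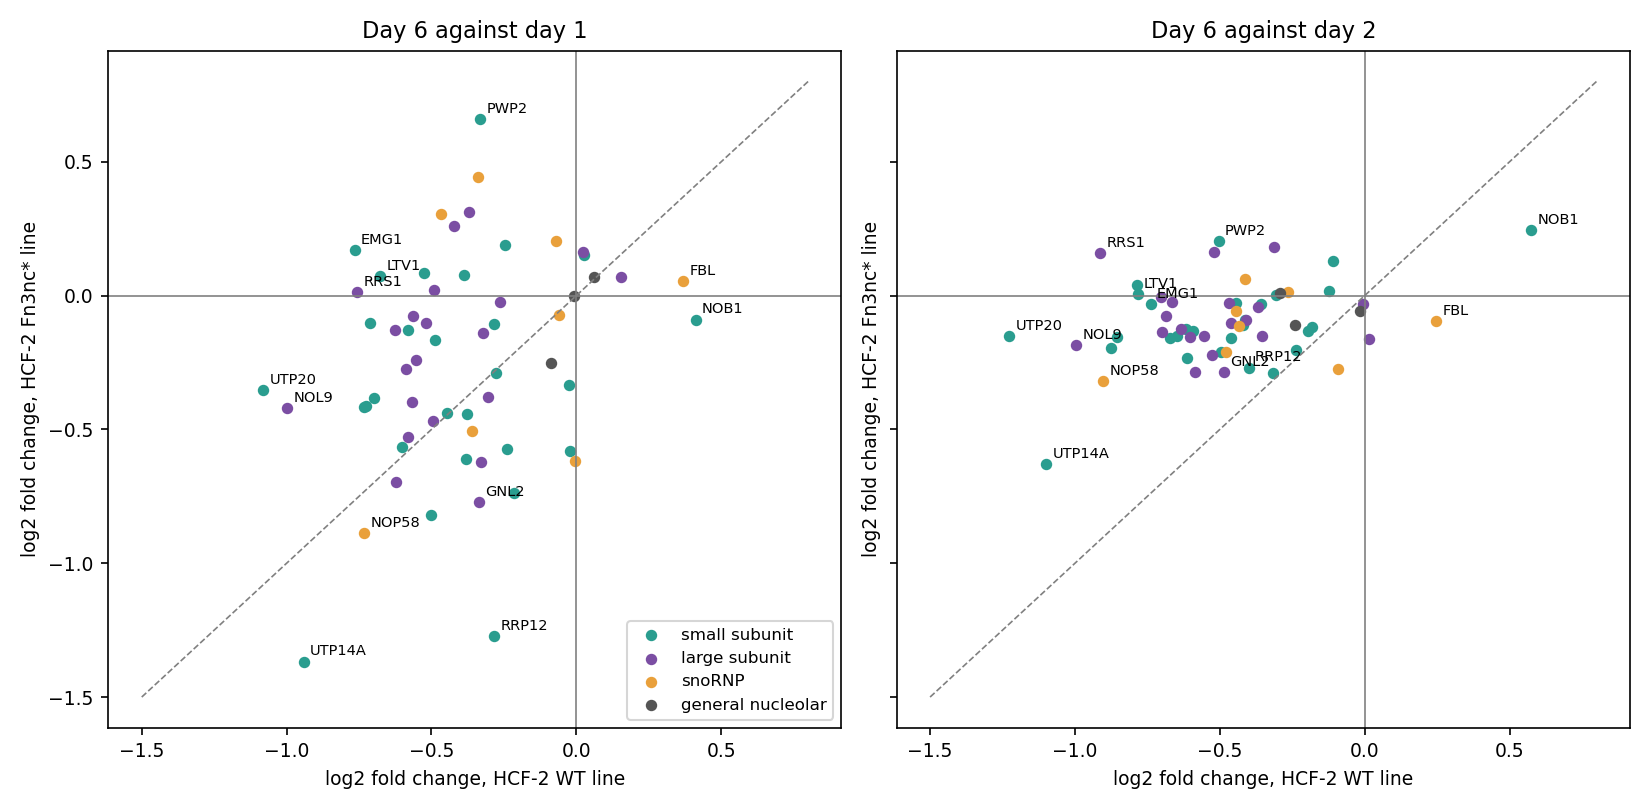
Change by day 6 (log2) in the HCF-2 WT line (x axis) and in the HCF-2 Fn3nc* line (y axis) for each of the 60 genes (points, coloured by class), from day 1 (left) and from day 2 (right); the dashed line marks equal change. From day 2 most points lie left of 0 and close to 0 on the y axis, with UTP20 at -1.23 and -0.15.

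On day 6 few of the 60 genes were lower in the HCF-2 Fn3nc* line than in the HCF-2 WT line. The single fit of all 16 libraries called 10 (16.7%) higher and 2 (3.33%) lower on that day, beside 13.2% and 16.8% of all genes. The share called higher was thus near that of all genes, and the share called lower was below it. The median log2 difference was 0.18. The 10 were UTP20 (1.04), BRIX1 (0.83), UTP6 (0.74), UTP14A (0.69), TSR1 (0.64), NOL9 (0.61), NOP58 (0.58), NOL6 (0.57), RRS1 (0.55) and MPHOSPH10 (0.54), and the 2 lower were TBL3 (-0.61) and NPM1 (-0.54). On day 6 UTP20 was at 182 and 189 CPM in the HCF-2 Fn3nc* line and 90.9 and 88.9 in the HCF-2 WT line, 2.06-fold higher in the former (log2 difference 1.04, SE 0.07, adjusted p = 3.9e-08). Without HCF-2 WT library 1 of day 6, 1 gene was called lower instead of 2.

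On the earlier days the numbers were different. On day 1, 8 genes were higher in the HCF-2 Fn3nc* line and 9 lower, beside 18.7% and 15.5% of all genes. The 8 were RRP12 (1.22), UTP14A (1.102), BRIX1 (0.79), DDX10 (0.73), NOP58 (0.72), NOP14 (0.70), GNL2 (0.64) and UTP3 (0.63). The 9 were PWP2 (-0.92), NHP2 (-0.87), NOP10 (-0.84), TBL3 (-0.75), EMG1 (-0.60), BOP1 (-0.58, and -0.49 without HCF-2 Fn3nc* library 1 of day 1), NPM1 (-0.57), RRP1 (-0.55) and WDR3 (-0.52). LTV1 and NOLC1 had log2 differences of -0.44 and 0.42 and were called without HCF-2 WT library 2 of day 1 (-0.52 and 0.50).

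On day 2, 1 gene (BRIX1) was higher and 6 (TBL3, PWP2, LAS1L, NHP2, RRP1 and RRS1) were lower, beside 9.08% and 7.57%, and on day 4, 2 (UTP20 and BRIX1) were higher and 1 (NPM1) lower, beside 10.1% and 12.1%. These counts moved with single libraries. Without HCF-2 Fn3nc* library 1 of day 2 the numbers on that day were 0 higher and 10 lower, and without library 2 there were 3 lower. On day 4 they were 0 higher and 4 lower without HCF-2 WT library 2, the library with counts in the most genes, 1 higher and 2 lower without HCF-2 Fn3nc* library 2, and 0 lower without HCF-2 Fn3nc* library 1.

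BRIX1 and NPM1 differed between the lines on most days. BRIX1, an assembly factor of the large subunit, had a CPM of 226 and 224 on day 1, 205 and 179 on day 2, 165 and 182 on day 4 and 165 and 168 on day 6 in the HCF-2 Fn3nc* line. In the HCF-2 WT line it had 136 and 124 on day 1, 130 and 135 on day 2, 128 and 114 on day 4 and 97.2 and 89.8 on day 6, so that the groups of the lines did not overlap on any day and all 4 differences were called (log2 0.79, 0.54, 0.52 and 0.83). NPM1 (chr5:170814120-170838814) was lower in the HCF-2 Fn3nc* line on each day, with a CPM of 1853 and 1903 on day 1 and 1975 and 2066 on day 6, and the difference was called on days 1, 4 and 6 but not on day 2 (log2 -0.57, -0.58, -0.54 and -0.49). The table lists 45 pseudogenes of NPM1, which took counts equal to 1.71% of those of the gene. NCL had a CPM of 864 and 852 on day 1 and 856 and 901 on day 6 in the HCF-2 Fn3nc* line, and its log2 differences of -0.46 to -0.17 were not called.

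The difference between the lines in the response itself was tested as the day 6 change in the HCF-2 WT line minus that in the HCF-2 Fn3nc* line. From day 1 the response was lower in the HCF-2 WT line for 26 of the 60 genes and higher for 9, at an adjusted p under 0.05 in edgeR, beside 16.1% and 20% of all genes. From day 2 it was lower for 33 and higher for 1, FBL, beside 10.3% and 13.9%. By class, the response from day 2 was lower for 16 of 28 small subunit factors, 13 of 21 large subunit factors, 4 of 8 snoRNP proteins and 0 of 3 general nucleolar proteins. The median difference of the 60 was -0.17 from day 1 and -0.33 from day 2 (log2), beside 0.00 over all genes tested in both. From day 2 FBL was not called without HCF-2 Fn3nc* library 1 of day 2 or library 1 of day 6.

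For UTP20, RRS1, LTV1, EMG1 and NOL9, which fell in the HCF-2 WT line, this difference was called from either day. It was -0.74 (SE 0.10, adjusted p = 4.72e-05) from day 1 and -1.06 from day 2 for UTP20, -0.78 (SE 0.13, adjusted p = 0.000217) and -1.06 for RRS1, -0.77 (SE 0.12, adjusted p = 0.000165) and -0.78 for LTV1, -0.95 (SE 0.12, adjusted p = 2.96e-05) and -0.69 for EMG1, and -0.59 (SE 0.09, adjusted p = 0.000155) and -0.80 for NOL9. DDX56 (log2 difference -0.51 from day 1 and -0.63 from day 2), PWP2 (-1.01 and -0.70), NHP2 (-0.80 and -0.46), BOP1 (-0.70 and -0.48) and RRP1 (-0.70 and -0.67) were called lower from both days as well, and in the last 4 the HCF-2 Fn3nc* day 1 group had the lowest mean of the 8 groups. UTP15 was called from day 2 (-0.69) but not from day 1 (-0.33), except with upper quartile scaling or without either HCF-2 WT library of day 4. NOP10 (-0.79 from day 1) was not called from day 2 (-0.38).

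For RRP12, UTP14A and GNL2, which were high in the HCF-2 Fn3nc* day 1 libraries, the sign depended on the reference. The difference was 0.97 (SE 0.11, adjusted p = 1.19e-05) from day 1 and -0.12 from day 2 for RRP12, 0.41 (SE 0.11, adjusted p = 0.00637) and -0.46 for UTP14A, and 0.42 (SE 0.11, adjusted p = 0.00623) and -0.19 for GNL2, and the first of each pair was called. UTP14A was called in both directions, higher from day 1 and lower from day 2. NOP58 had 0.14 from day 1, not called, and -0.57 from day 2, called, and NOP56 had 0.13 and -0.26 likewise. NOLC1 was called from day 1 (0.60) and not from day 2 (0.19). From day 1 DKC1 (-0.29) was not called without the FPKM filter, HCF-2 WT library 1 of day 6, HCF-2 Fn3nc* library 1 of day 1 or HCF-2 Fn3nc* library 2 of day 6, and FBL (0.30) was not called without the FPKM filter, HCF-2 WT library 2 of day 1 or day 6, either HCF-2 Fn3nc* library of day 1, or HCF-2 Fn3nc* library 1 of day 6. SDAD1 (0.28) was called without HCF-2 WT library 1 of day 1 or either of day 4.

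**Figure D5:**
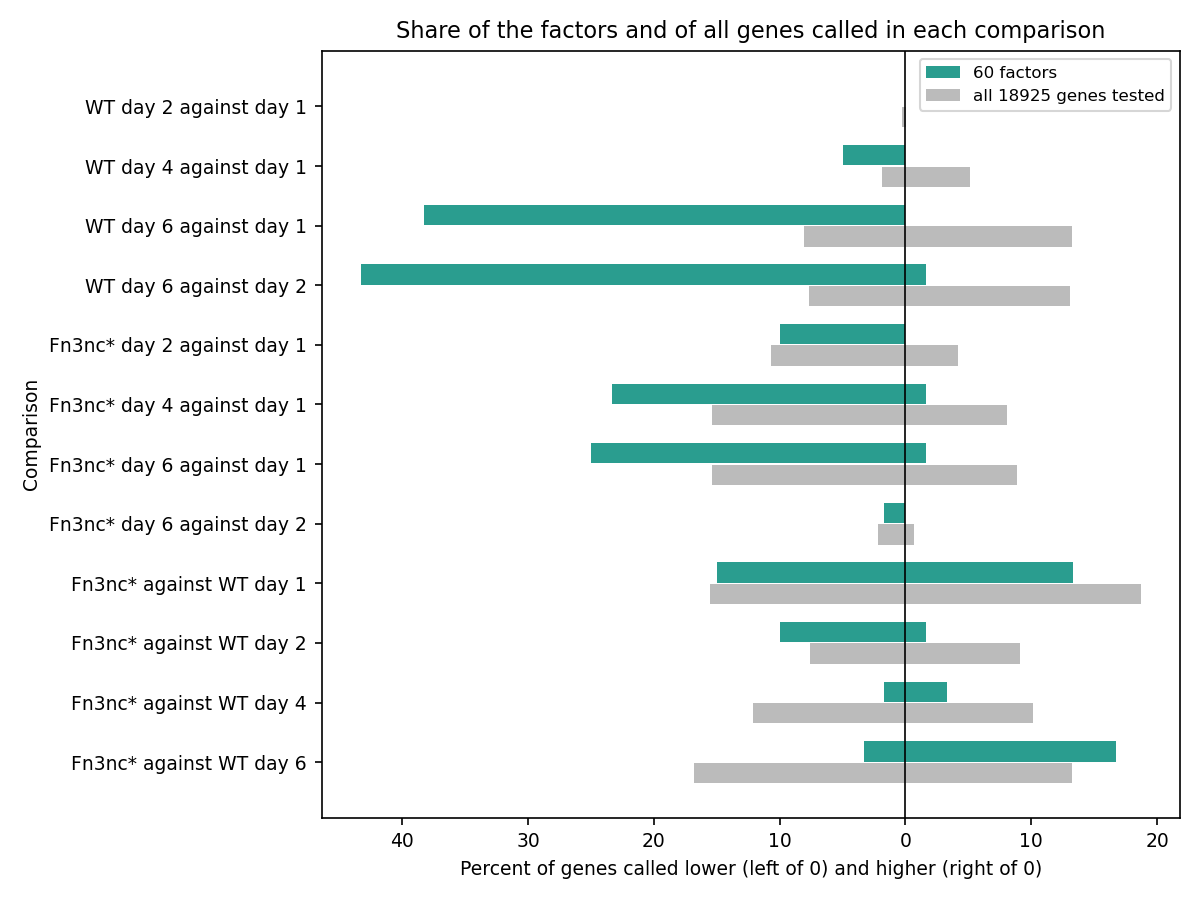
Percent of the 60 genes (green) and of all 18925 genes tested (grey) called lower (bars to the left of 0) and higher (to the right) in each comparison. In the HCF-2 WT line on day 6 the share called lower is 38.3% of the 60 genes from day 1 and 43.3% from day 2, while in the HCF-2 Fn3nc* line it is 25.0% and 1.67%.

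A second list of 100 ribosome biogenesis factors outside the 60, all of them tested, also had members that fell in each line. Of the 100, 26 had fallen in the HCF-2 WT line by day 6 and 1 had risen, with a median log2 fold change of -0.34, beside 8.04% and 13.2% of all genes, and from day 2 the counts were 28 and 1, beside 7.65% and 13.1%. RBM19, a nucleolar RNA-binding protein (log2 fold change -1.17), RRP36 (-0.95) and the helicase DDX49 (-0.89) fell the most, and NOP53 (GLTSCR2 in the table), a recruiter of the RNA exosome, rose (0.98). In the HCF-2 Fn3nc* line 37 had fallen and 1 had risen by day 6 from day 1, with a median of -0.34, beside 15.4% and 8.89% of all genes, and 2 had fallen and 0 had risen from day 2, beside 2.22% and 0.645%. There RIOK3 (-1.71), ZNF622 (-1.38) and UTP4 (CIRH1A in the table, -1.17) fell the most from day 1. Of the genes of this list that fell from day 1, 8 were shared, 30.8% of the 26 of the HCF-2 WT line and 21.6% of the 37 of the HCF-2 Fn3nc* line. Over all genes tested those shares were 21% and 10.9%. The response by day 6 was lower in the HCF-2 WT line for 23 of the 100 and higher for 26 from day 1, beside 16.1% and 20% of all genes, and lower for 32 and higher for 2 from day 2, beside 10.3% and 13.9%. On day 1, 29 of the 100 were higher in the HCF-2 Fn3nc* line and 3 were lower, beside 18.7% and 15.5% of all genes.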

How the data were processed

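RNA of 16 libraries, 2 in each of 8 groups, was sequenced as poly(A)-selected single-end reads. The authors aligned reads with STAR to GRCh37 and deposited expected counts per gene from RSEM 1.3.0. FPKM values per gene were deposited by the authors in the same run. Every sample column was used. Expected counts were rounded and 18925 of 57820 genes were kept (FPKM above 1 in at least 1 library), a choice made here, which held 99.58% to 99.83% of the counts.

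The quasi-likelihood test of edgeR 4.0.16 (R 4.3.3, TMM scaling) was fitted over the 8 libraries of a line for changes over days, and over all 16 libraries for differences between lines and for the response. Genes were called at a Benjamini-Hochberg adjusted p under 0.05 over all genes tested, with a log2 fold change beyond 0.5 except for the response. The authors' own comparisons used DESeq2, which was an alternative here (1.42.0), beside other scalings, filters and thresholds, day 2 as reference, a replicate block and leaving out each library. Libraries of 20270033 to 31006448 counts were compared, and no pair of a group agreed within sampling noise (chi-square per gene of 2.57 to 17.6). Gene positions and overlaps are those of GRCh37, in an annotation released after the one the authors used for the counts. Whether each overlapping record was present in the earlier annotation was not checked. A gene on the other strand also covers 31.7% of the exonic bases of IMP3, 30.0% of TBL3, 23.9% of TSR1 and 20.4% of NOB1, among others.

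The members and lists were chosen with earlier results of these data known. Values of single libraries are given for NPM1, NCL, FBL and DKC1. In each class they are also given for up to 4 genes with the largest called change by day 6 in the HCF-2 WT line. Up to 2 more were chosen by the same in the HCF-2 Fn3nc* line, and up to 2 more by the response. Not every day or line is given for each of these genes. BRIX1, NOB1 and genes given by a fold change alone were named after their values were seen.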

Additional observations from a re-analysis of the deposited data

Results flagged for a closer look

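For 35 of the 60 genes the change from day 1 to day 6 differed between the lines, by the test of that difference in edgeR (adjusted p under 0.05 over all genes tested, 2 libraries a group). Of the 60, 26 were lower and 9 higher in the HCF-2 WT line, beside 16.1% and 20% of all genes tested. Values are the log2 change in the HCF-2 WT line minus that in the HCF-2 Fn3nc* line. Among small subunit factors it was lower in the HCF-2 WT line for PWP2 (-1.01), EMG1 (-0.95), LTV1 (-0.77), UTP20 (-0.74), IMP3 (-0.63), NOL6 (-0.63), HEATR1 (-0.48), PNO1 (-0.47), WDR3 (-0.45), TSR1 (-0.34), MPHOSPH10 (-0.33) and UTP6 (-0.33). It was higher for RRP12 (0.97), NOP14 (0.54), DDX10 (0.51), NOB1 (0.49), UTP14A (0.41) and IMP4 (0.30).

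Among large subunit factors it was lower for RRS1 (-0.78), RRP1 (-0.70), BOP1 (-0.70), NOL9 (-0.59), GNL3L (-0.53), DDX56 (-0.51), MRTO4 (-0.50), EBNA1BP2 (-0.43), NOP16 (-0.33), DDX18 (-0.33) and RRP1B (-0.25), and higher for GNL2 (0.42). Among snoRNP proteins it was lower for NHP2 (-0.80), NOP10 (-0.79) and DKC1 (-0.29) and higher for NOLC1 (0.60) and FBL (0.30). With day 2 as the reference all of those lower were called lower as well, other than NOP10, WDR3 and EBNA1BP2. Of those higher, FBL was called higher from day 2, and UTP14A was called lower. The part of the HCF-2 Fn3nc* day 1 libraries, the 2 deepest, in these differences was not tested beyond that change of reference.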

How the results depend on the processing

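Of 534 alternatives of 28 counts of genes called, 490 stayed within 1.5 times, and of 1925 alternatives of 100 values of single genes, 1862 kept their direction and their side of the threshold, 42 lost the call, 16 gained one and 5 reversed. With adjusted p alone and no fold threshold, the counts called lower were 17 (HCF-2 WT day 4), 45 (HCF-2 WT day 6), 47 (HCF-2 WT day 6 from day 2), 27, 31 and 31 (HCF-2 Fn3nc* days 2, 4 and 6), 4 (HCF-2 Fn3nc* day 6 from day 2) and 21, 29, 9 and 7 (HCF-2 Fn3nc* against HCF-2 WT on days 1, 2, 4 and 6), and those called higher were 2 (HCF-2 WT day 6, from day 1 and from day 2), 7, 6 and 7 (HCF-2 Fn3nc* days 2, 4 and 6) and 19, 4, 13 and 30 (between lines on days 1, 2, 4 and 6). Shares of all genes without the fold threshold are not given, so these counts cannot be set against a background. With day 2 as reference the HCF-2 WT line had 1 called higher by day 6, the HCF-2 Fn3nc* line 1 lower and 0 higher, and the response 1 higher, and it reversed the response of UTP14A (-0.46), RRP12 (-0.12), GNL2 (-0.19), NOP58 (-0.57) and NOP56 (-0.26). Upper quartile scaling left 1 called lower in the HCF-2 WT line on day 4, and without the FPKM filter 0 had a higher response from day 2 and the response from day 1 was not called for UTP14A (0.38), FBL (0.26) and DKC1 (-0.32). Without that filter, 20 of the 26 genes with a lower response from day 1 kept the call, 6 of the 9 with a higher one, and 26 of the 33 with a lower response from day 2. The counts with a lower response also moved when single libraries were left out. Other scalings moved the median of all genes by at most 0.044 (log2). For these settings the cause was not tested, other than that the first removes a threshold. Leaving out 1 library gave 0 to 1 called higher in the HCF-2 WT line by day 6 from either day, 0 to 1, 1 to 2 and 1 to 2 higher in the HCF-2 Fn3nc* line on days 2, 4 and 6, 2 to 8 lower there on day 2, 0 to 1 and 3 to 10 (higher and lower) between lines on day 2, 0 to 2 and 0 to 4 on day 4, 1 to 3 lower on day 6, and 0 to 1 with a higher response from day 2, while the count lower in the HCF-2 WT line by day 6 was 21 to 25. Where a group kept 1 library, that library was assumed to vary like the others. Replicate numbers did not pair the libraries. The log2 CPM of library 1 minus that of library 2 was correlated between groups, at -0.221 to 0.206. With the replicate block the counts lower were 23 (HCF-2 WT day 6), 15 (HCF-2 Fn3nc* day 6), 24 and 31 (response from day 1 and day 2), none beyond 1.5 times.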
